A study of Mus musculus with 1989 samples.

Results

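The genes of the splicing machinery that are named Srsf, Snrp, Sf3a, Sf3b, Prpf or Hnrnp were followed through thymocyte development in single-cell RNA sequencing (scRNA-seq) data. The members are every row of the expression table whose symbol starts with 1 of these names, which gave 62 of 8846 genes. They comprise 10 Srsf, 11 Snrp, 9 Sf3a or Sf3b, 12 Prpf and 20 Hnrnp genes. All 62 matched a mouse RefSeq gene, and they lie on 18 chromosomes. RefSeq lists 66 protein-coding mouse genes with such symbols. Hnrnpa1l2-ps2, Prpf40b, Snrpn and Srsf12 had no row in the table used here.

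The cells came from the thymus of male C57BL/6 mice labelled as 7 weeks old, with no treatment and no genetic change given. The organ was ground in medium, cells were captured in droplets with a 10x Genomics 3′ V2 kit, and the sequences were read on a HiSeq X-10 instrument. The study asked how double-positive (DP) thymocytes develop, and its chromatin libraries were not used here. The data hold 1 library of 1993 cells and name no animal, so the cells form 1 sample. No test between stages, p-value or standard error was computed, and the intervals below cover counting error only.

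In splicing, introns are cut out of the transcript by the spliceosome, a machine of small nuclear ribonucleoproteins (snRNPs) that assembles anew on each intron. Most Snrp genes encode the Sm proteins that form a ring around spliceosomal RNAs, or proteins bound to U1 and U2 RNA. SF3a and SF3b belong to the U2 snRNP and hold it at the branch point, and Prpf genes encode pre-mRNA processing factors, many of them in the U4/U6.U5 tri-snRNP. SR proteins (Srsf) bind exons and mostly favour their use, whereas hnRNP proteins coat nascent RNA and often oppose it. In T cells the best known case is CD45 (Ptprc), whose variable exons are skipped under the control of hnRNP LL, encoded by Hnrnpll. The assay counts tags at the 3′ end of mRNA, so the values are levels of the mRNAs of these factors and not measures of splicing.

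The deposited values are log2 values made comparable in distribution across cells, and they keep the order of genes within a cell. Each value was therefore replaced by its step, its place in the ordered list of different values that the cell holds, which stands in for the number of molecules. Of all member values above 0, 43.6% were a single step and 86.5% were at most 5 steps. A cell had a median of 2558 steps, and the deepest cell had 22539. To put cells on equal depth, 1300 steps were drawn at random from each, and levels are mean thinned steps per cell with exact 95% Poisson intervals. Thinning mattered because classes differed in depth. The median was 10082 steps in immature single-positive (ISP)-like cells, 5219 in DP blast (DPbla)-like cells and 1905 in rearranging DP (DPre)-like cells. A single step had a mean deposited log2 value of 0.13 in ISP-like cells and 0.87 in DPre-like cells, so the deposited scale is not used to compare classes.

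Cells were clustered with variable genes, none of which is a member, into 17 clusters that were named from marker genes. The ISP markers were Mki67, Myc, Tfrc, Nme1, Ptcra, Slc7a5 and Srm. With growth and division genes among them, the ISP-like class was chosen in part for high biosynthetic expression. Of the 2 ISP-like clusters, that with 65 cells had mean marker scores of 0.716 for ISP and 0.508 for DPbla. Its leading genes held no ISP marker and included Plk1, Aurkb and Aspm. The classes are 78 double-negative (DN)-like, 163 ISP-like, 339 DPbla-like, 375 DPre-like, 163 DP under selection (DPsel)-like, 148 CD4 single-positive (CD4sp)-like and 147 CD8 single-positive (CD8sp)-like cells. A further 31 nonconventional lymphocyte (NCL)-like and 36 antigen-presenting cell (APC)-like cells were named, the latter led by the B cell genes Cd79a, Ebf1 and Ms4a1. The other 4 clusters, with 513 cells (25.7%), stayed unnamed and entered no comparison. Since the clusters were rebuilt here, the classes may differ from the study's. The summed level of 5 B cell markers was 4.86 steps in APC-like cells and 0.0177 to 0.154 in the 7 thymocyte classes. Doublets were not called, and 7 cells had over 4500 detected genes.

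Across development, the members together were highest in the dividing immature stages. The sum of the 62 members was 27.9 of 1300 thinned steps in DN-like cells (95% interval 26.7 to 29.0), 42.5 in ISP-like cells (41.5 to 43.5) and 37.2 in DPbla-like cells (36.6 to 37.9). It was 23.6 in DPre-like cells (23.1 to 24.1), 27.5 in DPsel-like cells (26.7 to 28.4), 24.2 in CD4sp-like cells (23.4 to 25.0) and 25.4 in CD8sp-like cells (24.5 to 26.2). The order was ISP, DPbla, DN, DPsel, CD8sp, CD4sp and DPre. The intervals of DN-like and DPsel-like cells overlapped, as did those of CD8sp-like and CD4sp-like cells and those of CD4sp-like and DPre-like cells. The NCL-like cells had 22.2 steps (20.6 to 24.0) and the APC-like cells 19.2 (17.8 to 20.7). Spread between cells was wider than these intervals, with an SD over cells of 6.91 steps in ISP-like cells.

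The families did not share this pattern to the same degree. Snrp genes summed to 14.2 steps in ISP-like cells and 5.96 in DPre-like cells, a ratio of 2.38. The Srsf sums were 7.95 and 3.93, a ratio of 2.02, and the Hnrnp sums were 15.5 and 9.60, a ratio of 1.61. For Sf3a and Sf3b genes the ratio was 1.28, with 3.22 against 2.52 steps. Prpf genes were flat, with 1.68 (1.48 to 1.89) against 1.56 (1.43 to 1.69) steps and a ratio of 1.08. Hnrnp genes were at the same level in ISP-like and DPbla-like cells (15.5 and 15.4 steps), whereas Snrp genes were lower in DPbla-like cells, at 9.92 steps.

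**Figure D1:**
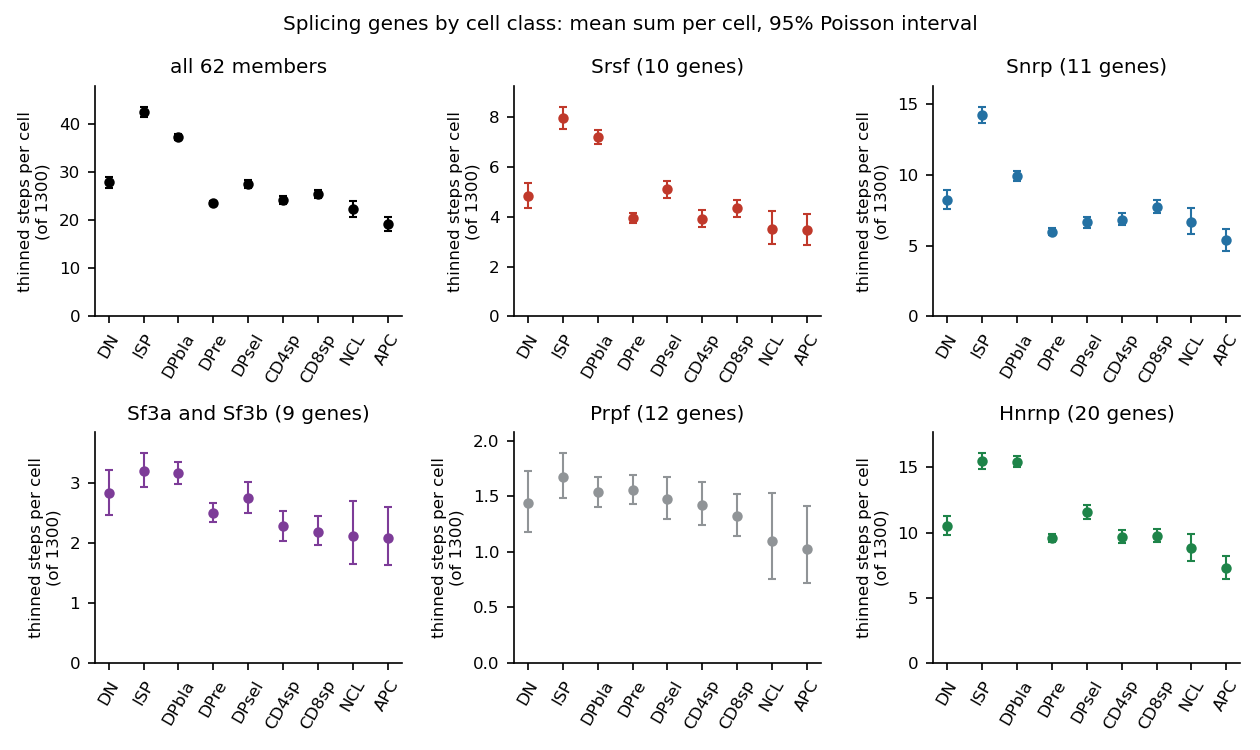
Mean sum of thinned steps per cell (of 1300) in all 62 members and in each of 5 families, for 9 cell classes; points are means and bars are 95% Poisson intervals of the sum. The Snrp panel peaks in ISP-like cells at 14.2 steps, the Hnrnp panel has equal peaks in ISP-like and DPbla-like cells, and the Prpf panel has overlapping intervals in the 7 thymocyte classes.

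Single members ranged widely in level. The mean over the 7 thymocyte classes ran from 0.0308 steps per cell for Prpf3, a factor of the tri-snRNP, to 1.98 for Snrpg, which encodes the Sm protein SmG. The median member stood at 0.355 steps, 9 members were at 1 step or more and 7 were below 0.1. Because the tags come from transcript ends, gene length was not corrected for. The class with the highest level was ISP-like for 28 members, DPbla-like for 17 and DN-like for 7. All 11 Snrp genes were highest in ISP-like cells, and 12 of 20 Hnrnp genes were highest in DPbla-like cells. The lowest class was DPre-like for 18 members, CD4sp-like for 14 and CD8sp-like for 11. Of the 4711 genes of the table with a mean of at least 0.05 steps over these classes, 18.2% had their highest level in ISP-like cells, 11.7% were highest in DPbla-like cells and 18.4% in DN-like cells, beside 45.9%, 27.9% and 11.5% of the 61 members at that level. The lowest class was DPre-like for 10.3% of these genes, CD4sp-like for 16.0% and CD8sp-like for 11.6%, beside 29.5%, 23.0% and 18.0% of the members. The highest and lowest of 7 values differ by chance too, and most so for the low Prpf genes.

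**Figure D2:**
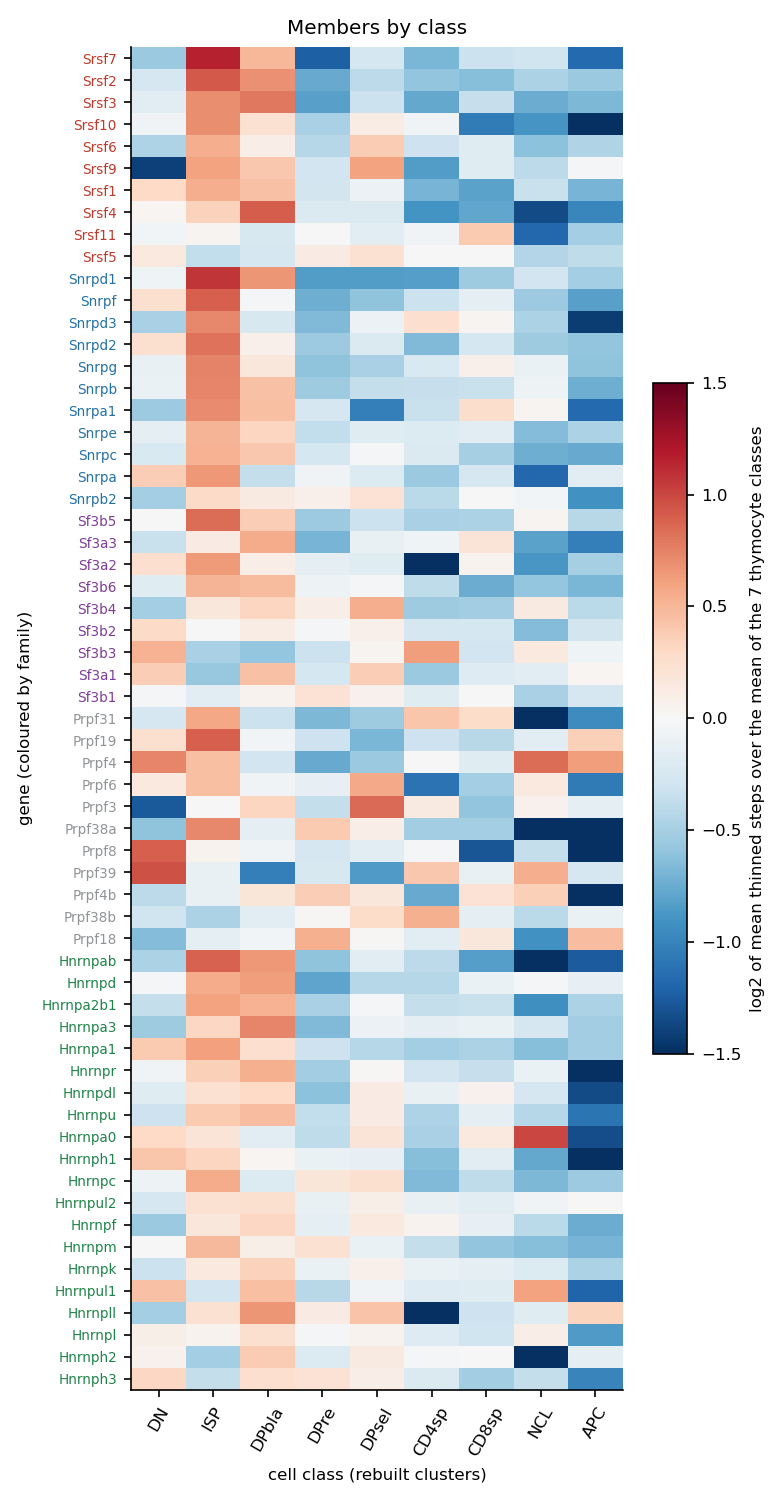
Log2 of the mean thinned steps of 61 members (rows, grouped by family) in each class (columns) over its mean in the 7 thymocyte classes, with colours ending at -1.5 and 1.5; a class at 0 is drawn at 3 steps. Red dominates the ISP and DPbla columns for Srsf, Snrp and Hnrnp rows, and the Prpf rows are mixed.

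The first comparison set ISP-like cells, which proliferate, against DPre-like cells, which rest while the T cell receptor alpha locus is rearranged. Of 61 members that reached 0.05 steps per cell over the 2 classes, 32 were at least 1.5-fold higher in ISP-like cells and 1 was lower. Over all 4626 genes tested, 25.3% were past this fold in the higher and 31.9% in the lower direction, so members were called higher in 52.5% of cases and lower in 1.64%. The median log2 ratio was 0.71 over members and -0.11 over all genes. The 95% intervals of the 2 classes did not overlap for 30 members (49.2%), 29 of them higher, whereas 32.8% of all genes had intervals apart.

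Among SR protein genes the steepest was Srsf7, whose product binds exonic enhancers and also acts in mRNA export. It had 0.969 steps per cell in ISP-like cells (0.824 to 1.13) and 0.187 in DPre-like cells (0.146 to 0.236), a ratio of 5.19. The ISP-like level was not uniform, with 1.16 in the cluster of 98 cells and 0.677 in that of 65 cells, near the DPbla-like level. In the other thymocyte classes Srsf7 was at 0.617 in DPbla-like, 0.362 in DPsel-like, 0.347 in CD8sp-like, 0.295 in DN-like and 0.270 in CD4sp-like cells. Its DPre-like interval lay below those of the ISP-like, DPbla-like, DPsel-like and CD8sp-like cells. Srsf2 encodes SC35, a component of nuclear speckles. It was at 1.70 steps in ISP-like cells (1.51 to 1.91) and 0.533 in DPre-like cells (0.462 to 0.613), a ratio of 3.19. For Srsf3, the smallest SR protein, the ratio was 2.87, from 2.02 steps (1.81 to 2.25) to 0.704 (0.622 to 0.794). Srsf1 encodes SF2/ASF, the founding SR protein, and had a ratio of 1.75. Of the 10 Srsf genes, 7 were past 1.5-fold. Srsf5 ran the other way, with 0.644 steps (0.527 to 0.780) in ISP-like cells and 0.909 (0.815 to 1.01) in DPre-like cells, a ratio of 0.708 that did not reach the fold but had intervals apart.

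Of the 11 Snrp genes, 10 were higher past the fold. The core of the snRNP is a ring of 7 Sm proteins, and all of their genes in the table, Snrpb, Snrpd1, Snrpd2, Snrpd3, Snrpe, Snrpf and Snrpg, were in this group. Snrpd1 had the largest ratio, 3.74, with 1.41 steps in ISP-like cells (1.23 to 1.60) and 0.376 in DPre-like cells (0.317 to 0.443). Snrpf was at 2.38 steps (2.15 to 2.63) against 0.768 (0.682 to 0.862), a ratio of 3.10. Snrpg, the highest member, was at 3.30 steps (3.03 to 3.59) against 1.3 (1.19 to 1.42), a ratio of 2.54. The smallest Sm ratio was 1.84 for Snrpe. Outside the ring, Snrpa1 encodes the U2 snRNP protein A′ and had a ratio of 1.95. Snrpb2, which encodes its partner on U2 RNA, had 0.448 against 0.387 steps and did not pass the fold.

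Of the 9 Sf3a and Sf3b genes of the U2 snRNP, 4 were past the fold. Sf3b5, which encodes a small SF3b subunit, was at 0.730 steps in ISP-like cells (0.605 to 0.874) and 0.280 in DPre-like cells (0.229 to 0.339), a ratio of 2.61. Sf3b6 encodes p14, the subunit close to the branch point adenosine, and had a ratio of 1.51, and a log2 ratio of -0.16 from 3 steps in the 5 ISP-like cells with 2000 to 4000 steps. Sf3b1 encodes the large scaffold of SF3b and was at 0.442 steps (0.346 to 0.556) against 0.579 (0.504 to 0.661). Sf3b2 was at 0.503 against 0.496 steps, Sf3b4 at 0.166 against 0.157 and Sf3b3 at 0.166 against 0.187. Sf3a2 and Sf3a3 also passed the fold at 0.184 and 0.123 steps in ISP-like cells, with overlapping intervals, and Sf3a2 was below DPre-like cells in another random thinning, at a log2 ratio of -0.42. Among the Prpf genes, Prpf31, a tri-snRNP factor, had a ratio of 2.39 from 26 and 25 steps counted in all, and Prpf19 had a ratio of 2.30. Prpf4 was also past the fold, but with 0.0320 steps in DPre-like cells it passed the filter only through the ISP-like level of 0.0736, the 1 member of the 32 of which this holds. Prpf18, a factor of the second catalytic step, was the only member past the fold in the lower direction, with 9 steps in 163 ISP-like cells and 33 in 375 DPre-like cells. Its intervals overlapped. Without thinning Prpf18 was above DPre-like cells, at a log2 ratio of 1.49, but so were 4537 of 4626 genes, with a median of 2.22. That value therefore cannot show its direction at equal depth.

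Of the 20 Hnrnp genes, 8 were past the fold. Hnrnpab had the largest ratio, 2.80, with 1.58 steps in ISP-like cells (1.39 to 1.78) and 0.563 in DPre-like cells (0.489 to 0.644). Hnrnpd, which encodes the AU-rich element binding protein AUF1, followed with 0.534 against 0.211 steps and a ratio of 2.53. Hnrnpa2b1 and Hnrnpa1, the core proteins of hnRNP particles, had ratios of 2.12 and 1.90, at 2.04 against 0.963 and 2.07 against 1.09 steps. Among cells with 2000 to 4000 steps, of which 5 were ISP-like, the log2 ratio was -0.13 for Hnrnpd, -0.56 for Hnrnpa2b1 and -0.43 for Hnrnpa1, from 1, 3 and 4 steps in those 5 cells, and -0.75 for Hnrnpf from 4 steps. Hnrnpu encodes a nuclear scaffold protein and had a ratio of 1.70, but a log2 ratio of 0.31 from 3 steps in those 5 cells. Hnrnpf, the Hnrnp gene with the highest mean over the 7 thymocyte classes, was within the fold at a ratio of 1.24 but had intervals apart, with 1.72 steps (1.52 to 1.93) against 1.39 (1.27 to 1.51). Hnrnpl, a paralog of Hnrnpll, was at 0.313 against 0.296 steps.

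**Figure D3:**
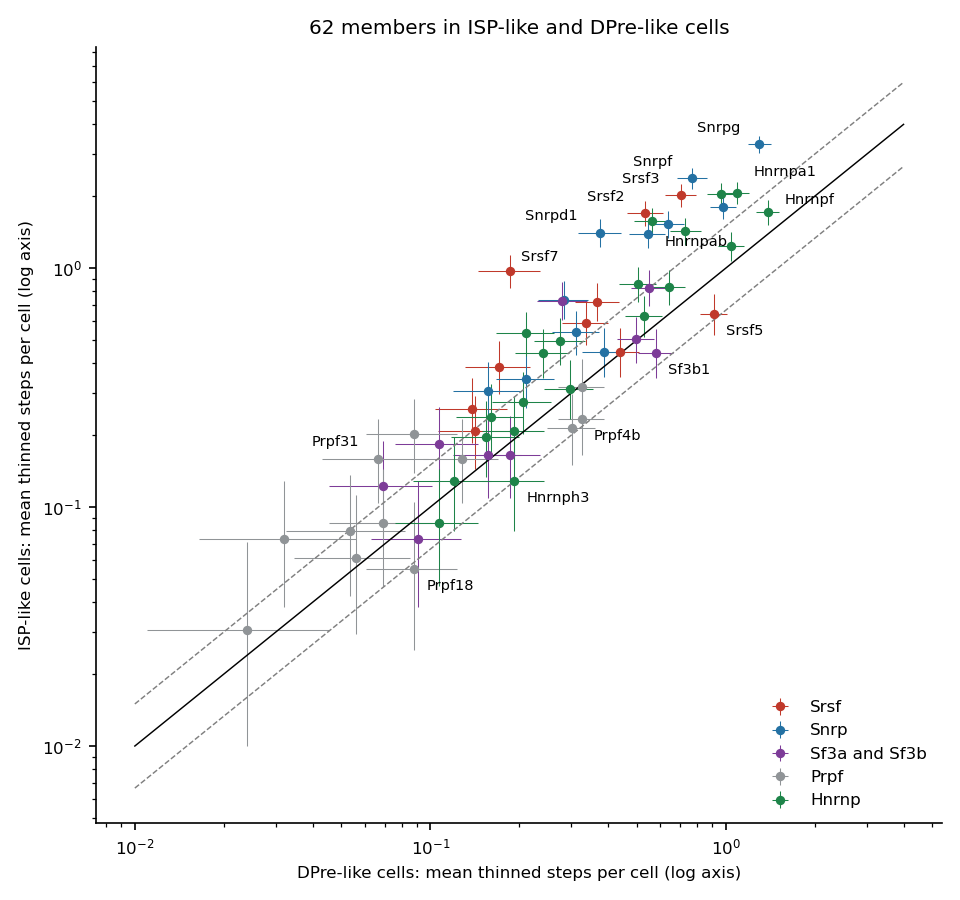
Mean thinned steps per cell of the 62 members in DPre-like cells (horizontal, log axis) and ISP-like cells (vertical, log axis), with 95% Poisson intervals; the solid line marks equal levels and dashed lines mark 1.5-fold. Srsf7 and Snrpd1 lie farthest above the upper line, and Prpf18 is the only member below the lower line.

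The promoters of members that were higher in ISP-like cells were read for short motifs, as a description. The RefSeq promoter table of build GRCm38.p6 had windows for 54 of the 62 members. In the 250 bases before the start, on both strands, the ETS core motif CCGGAAG was found in 18 of 54 members (33.3%) and in 18.7% of the 6885 genes of the table with a window. The GC box GGGCGG was found in 68.5% and 65.0%, the CCAAT box in 48.1% and 41.0%, and the E-box CACGTG in 11.1% and 10.5%. Members past the fold in ISP-like cells held the ETS core in 27.6% of 29 cases and the other members in 40.0% of 25. Shown as examples are 3 stretches of 150 bases that end just before the start, from the Hnrnp, Snrp and Srsf families, each a gene past the fold whose stretch no RefSeq gene covers. They are Hnrnpab on the minus strand (chr11:51606882-51607031), Snrpg on the plus strand (chr6:86371390-86371539) and Srsf6 on the plus strand (chr2:162931358-162931507). Capitals mark matches to the 4 motifs in either orientation.
Hnrnpab: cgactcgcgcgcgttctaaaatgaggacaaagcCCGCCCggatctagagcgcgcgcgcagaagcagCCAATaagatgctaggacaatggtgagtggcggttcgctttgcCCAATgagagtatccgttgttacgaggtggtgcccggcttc
Snrpg: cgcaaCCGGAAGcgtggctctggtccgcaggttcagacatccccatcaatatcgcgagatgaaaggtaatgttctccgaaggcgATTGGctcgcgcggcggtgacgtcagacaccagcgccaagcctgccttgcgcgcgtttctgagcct
Srsf6: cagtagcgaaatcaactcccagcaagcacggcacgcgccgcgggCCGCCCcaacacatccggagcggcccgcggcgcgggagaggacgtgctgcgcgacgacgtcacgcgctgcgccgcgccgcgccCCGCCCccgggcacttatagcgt
The Hnrnpab stretch holds 2 CCAAT boxes and 1 GC box, that of Snrpg 1 ETS core and 1 CCAAT box, and that of Srsf6 2 GC boxes.

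The second comparison stayed within the DP stage and set dividing DPbla-like cells against DPre-like cells. Here 26 of 59 members tested were at least 1.5-fold higher and 0 were lower. This was 44.1% of members in the higher direction, where 17.3% of 4541 genes were past the fold, and 28.9% of genes were past it in the lower direction. Intervals did not overlap for 30 members (50.8%), 29 of them higher, against 31.4% of all genes. The median log2 ratio was 0.54 over members and -0.19 over all genes.

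Past the fold were 8 of 11 Snrp, 7 of 10 Srsf, 8 of 20 Hnrnp and 3 of 9 Sf3a or Sf3b genes. Srsf3 was at 2.15 steps in DPbla-like cells (2.00 to 2.32), a ratio of 3.06 over DPre-like cells and close to its level in ISP-like cells. The ratio was 3.30 for Srsf7, 2.71 for Srsf2 and 2.66 for Hnrnpd. Among cells with 2000 to 4000 steps, 39 of them DPbla-like, the log2 ratio was 1.33 for Srsf7 and 1.59 for Srsf2 but 0.07 for Hnrnpd, and of the named members Srsf1, Srsf9 and Sf3a1 were also within the fold and Snrpd2 turned to -0.11. Hnrnpa3, a relative of Hnrnpa1, was at 1.91 steps (1.76 to 2.06) against 0.731 (0.647 to 0.823), a ratio of 2.61, and its ISP-like level of 1.43 (1.252 to 1.625) was lower. Hnrnpa2b1 had a ratio of 2.00. The Sm genes had smaller ratios than in the first comparison, at 2.82 for Snrpd1, 1.72 for Snrpg and 1.64 for Snrpf. Snrpf was at 1.26 steps in DPbla-like cells (1.14 to 1.39), below its ISP-like interval. Of the 9 Prpf genes tested, 0 were past the fold, and the other 3 were too low to be tested. Srsf5 was again lower, with 0.696 steps (0.610 to 0.791), within the fold and with intervals apart. Its log2 ratio was only -0.02 when cells were limited to 2000 to 4000 steps, from 37 and 149 steps counted. The lower Srsf5 level was therefore not seen in that range.

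The 3 DPbla-like clusters differed among themselves. The sum of the members was 40.8 steps in the 172 cells of the cluster led by Esco2, E2f8 and histone genes, which are S phase genes. It was 35.7 in the 95 cells led by Ttk, Gas2l3 and Cdc25c, and 30.7 in the 72 cells led by Cdc20, Cenpf and Ccnb1, which act in mitosis. The DPre-like clusters had 24.4 and 22.6 steps. Srsf3 ran at 2.61, 1.64 and 1.75 steps in the 3 DPbla-like clusters in this order, and Srsf2 at 1.79, 1.28 and 0.833. Hnrnpd was at 0.698, 0.495 and 0.319 steps. The unnamed cluster led by the G1/S genes Ccne2, Ung and Cdc6 had 40.1 steps in 151 cells, and the unnamed cluster led by Hist1h2bc, Psrc1 and Knstrn had 31.0 in 121 cells. The clusters were made from genes that include cell cycle genes and no member, and the levels are a description of 1 library.

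DN-like cells, which have not yet reached the DP stage, were set against DPre-like cells. Of 61 members, 14 were past 1.5-fold higher and 7 lower, or 23.0% and 11.5%, beside 25.5% and 20.8% of 4836 genes. Intervals were apart for 6 members (9.84%), all higher, and for 13.4% of genes. These 6 were Snrpf at 1.5 steps (1.24 to 1.80), Snrpd2, Snrpd1, Snrpg, Hnrnpa1 and Srsf3. Hnrnpa1 was at 1.77 steps in DN-like cells (1.49 to 2.09), between its levels in ISP-like and DPre-like cells. The members past the fold in the lower direction included Srsf9 at 0.0641 steps and Hnrnpll at 0.0769 steps, with intervals that overlapped those of DPre-like cells. Without thinning 6 of the 7 were above DPre-like cells, Srsf9 at a log2 ratio of 0.53 and Hnrnpll at 0.37. However, 4464 of 4836 genes were then above, with a median of 0.99, so these values cannot show the direction at equal depth. Prpf39 and Prpf8 had ratios of 2.29 and 2.22 with overlapping intervals, from 10 and 12 steps in the 78 cells. Prpf4 passed the filter only through its DN-like level of 0.0897 steps, and Prpf18, 1 of the 7 lower, only through its DPre-like level of 0.0880.

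DPsel-like cells, in which the T cell receptor is tested, had nearly the same depth as DPre-like cells, with a median of 1891 steps against 1905. Of 59 members, 8 were higher past the fold and 1, Snrpa1, was lower. These are 13.6% and 1.69%, beside 15.5% and 15.3% of 4648 genes, so the share of members called higher was near the background. Intervals were apart for 8 members (13.6%), all higher, against 11% of genes. They were Srsf7, Srsf9, Srsf6, Hnrnpdl, Hnrnpa3, Hnrnpu, Srsf3 and Hnrnpa2b1. Srsf6 was at 0.644 steps (0.527 to 0.780) against 0.368 (0.309 to 0.435), a ratio of 1.75, and Srsf9 had a ratio of 1.86. The sum of the Srsf genes was 5.09 steps (4.75 to 5.44) against 3.93 (3.73 to 4.13). The Hnrnp sum was 11.57 (11.05 to 12.1) against 9.60 (9.29 to 9.92), and the Snrp sum 6.64 (6.25 to 7.05) against 5.96 (5.71 to 6.21). For the Sf3a and Sf3b and the Prpf sums the intervals overlapped.

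In the mature CD4sp-like and CD8sp-like cells together, members were close to DPre-like cells as a group, but families differed. The ratio of the sums was 1.22 for Snrp, 1.05 for Srsf, 1.01 for Hnrnp, 0.891 for Sf3a and Sf3b and 0.882 for Prpf genes. Snrp genes summed to 6.84 steps in CD4sp-like (6.42 to 7.27) and 7.73 in CD8sp-like cells (7.285 to 8.19). Both intervals lay above that of DPre-like cells (5.71 to 6.21), whereas those of Sf3a and Sf3b and of Prpf genes overlapped it. Of 59 members 5 were higher and 7 lower past the fold, or 8.47% and 11.9%, beside 16.3% and 22% of 4689 genes. Intervals were apart for 10 members (16.9%), 6 higher and 4 lower, against 22.1% of genes. Snrpd3, which encodes SmD3, was higher at 0.498 steps (0.421 to 0.586) against 0.283 (0.231 to 0.342), and Srsf7 was higher by a ratio of 1.65. Hnrnpc encodes a protein that binds uridine tracts and masks cryptic exons, and it was lower at 0.397 steps (0.328 to 0.475) against 0.643 (0.564 to 0.729), a ratio of 0.617. Hnrnpm, whose product also regulates alternative exons, had a ratio of 0.616 and intervals apart. Among cells with 2000 to 4000 steps the log2 ratio was 0.99 for Snrpd3 and -0.63 for Hnrnpc, but 0.32 for Srsf7 and -0.42 for Hnrnpm, both within the fold. Hnrnpll had a ratio of 0.508, from 18 steps counted in 295 cells and 45 in 375, with overlapping intervals.

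Between the lineages, no member had intervals apart. Of 60 members tested in CD4sp-like against CD8sp-like cells, 4 were higher and 6 lower past the fold, or 6.67% and 10.0%, beside 13.2% and 14% of 4618 genes. Of these, 1 of the 4 (Prpf8) and 2 of the 6 (Hnrnpll and Sf3a2) passed the filter only through the class where they are higher. Intervals were apart for 0 members and for 2.53% of genes. Hnrnpll was at 0.0338 steps in CD4sp-like cells (0.0110 to 0.0788) and 0.0884 in CD8sp-like cells (0.0471 to 0.151), which is 5 and 13 steps counted in all. Across the other thymocyte classes Hnrnpll was at 0.174 in DPbla-like, 0.147 in DPsel-like, 0.129 in ISP-like, 0.120 in DPre-like and 0.0769 in DN-like cells.

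**Figure D4:**
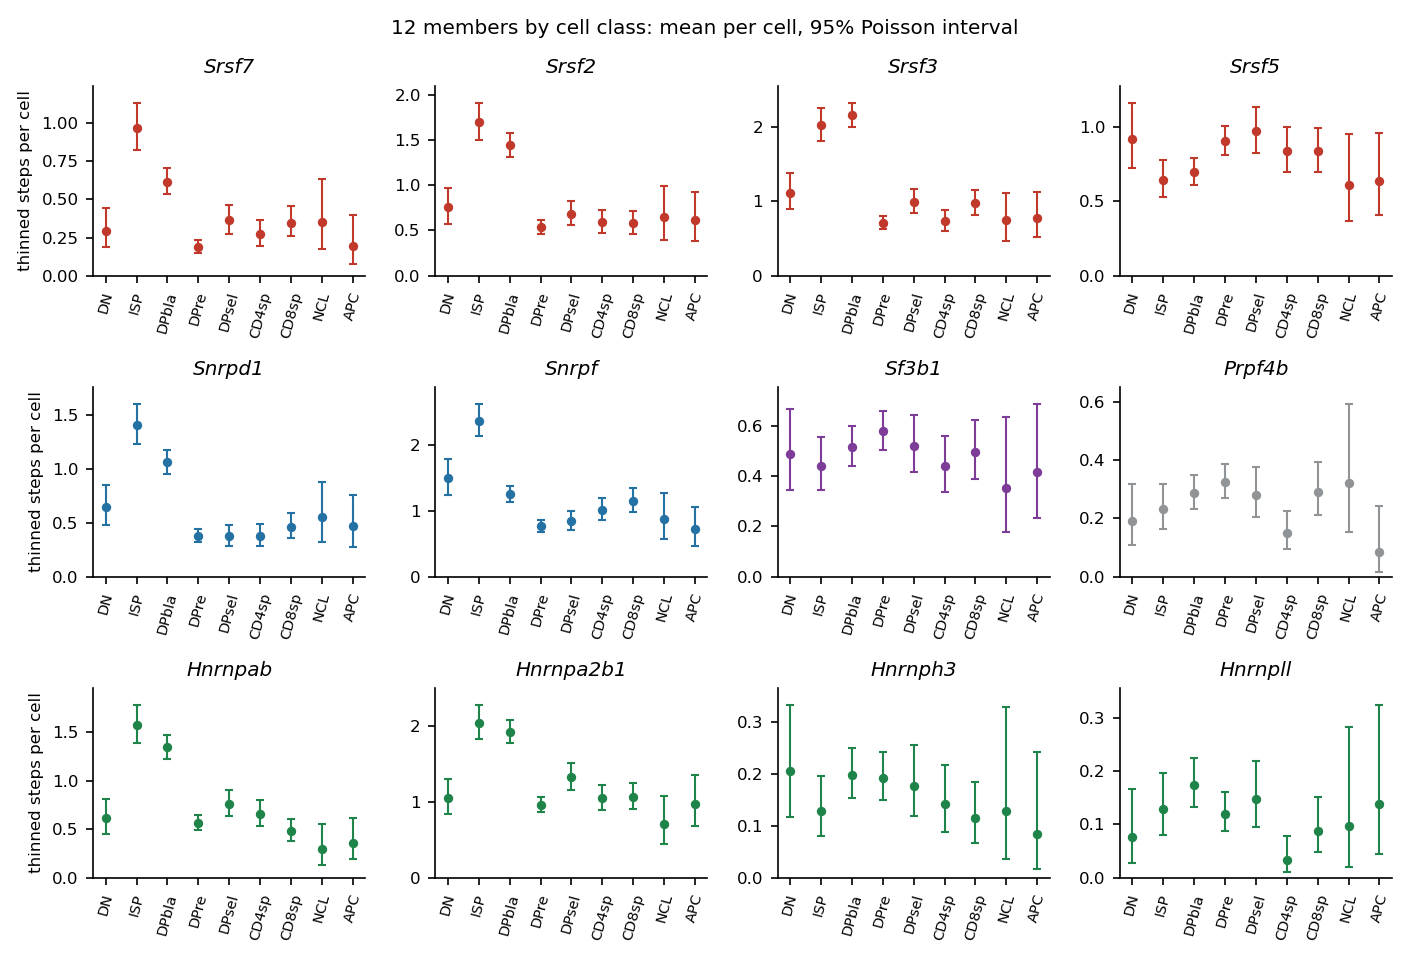
Mean thinned steps per cell of 12 members in 9 classes, with 95% Poisson intervals; axes start at 0. Srsf7, Srsf2, Srsf3, Snrpd1 and Hnrnpab are high in ISP-like and DPbla-like cells, Snrpf is highest in ISP-like cells, and Srsf5 is lower in these classes than in DPre-like cells.

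Other gene groups of RNA and protein synthesis were read in the same way. Between ISP-like and DPre-like cells, 54.8% of 73 mitochondrial ribosomal protein genes, 37.7% of 53 translation factor genes, 32.4% of 102 other splicing genes and 29.7% of 37 proteasome genes were past the fold in the higher direction, beside 52.5% of members. Between DPbla-like and DPre-like cells the shares were 14.1% of 71, 11.5% of 52, 25.7% of 101 and 16.2% of 37, beside 44.1% of members. The other splicing genes, which include U2af, Lsm and DEAD-box helicase genes, had a median log2 ratio of 0.22 in ISP-like cells and 0.18 in DPbla-like cells. Translation factors had a median of 0.33 and -0.11. No test of these differences between lists was made.

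To read the part of depth, each class was split at its median number of steps. In ISP-like cells the shallower and the deeper cells had 42.4 and 42.5 steps, at median depths of 8198.5 and 12795. They had 36.2 and 38.2 steps in DPbla-like cells and 23.0 and 24.1 in DPre-like cells. In DN-like cells the gap was larger, with 25.7 steps (24.1 to 27.3) in the shallower and 30.0 (28.3 to 31.8) in the deeper cells, and the interval of the shallower cells just missed that of DPre-like cells. CD8sp-like cells had 24.0 (22.9 to 25.1) and 26.7 (25.6 to 28.0) steps, also with intervals apart. Among cells with 2000 to 4000 steps, the sum was 35.3 in 39 DPbla-like cells (33.4 to 37.2) and 23.9 in the DPre-like cells of this range (23.2 to 24.7). Only 5 ISP-like cells lay in it, with 36.0 steps (30.9 to 41.7). The intervals of the DN-like cells in it (26.0 steps, 24.6 to 27.5), of the DPsel-like cells (25.8 steps, 24.5 to 27.1) and of the CD8sp-like cells (24.4 steps, 23.4 to 25.4) overlapped that of the DPre-like cells. In this range 20 of 58 members were higher past the fold and 5 lower in DPbla-like cells, where 24.2% of genes were higher and 31.3% lower. No count past the fold is given for the 5 ISP-like cells, because a gene at 0 in them is set to 3 steps over the class, or 0.6 per cell, which alone places low genes past the fold. Without thinning, all 61 members tested were above DPre-like cells in ISP-like cells, with a median log2 ratio of 3.00, and 4537 of 4626 genes were above with a median of 2.22. With thinning 51 of the 61 members and 2130 of the 4626 genes were above.

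**Figure D5:**
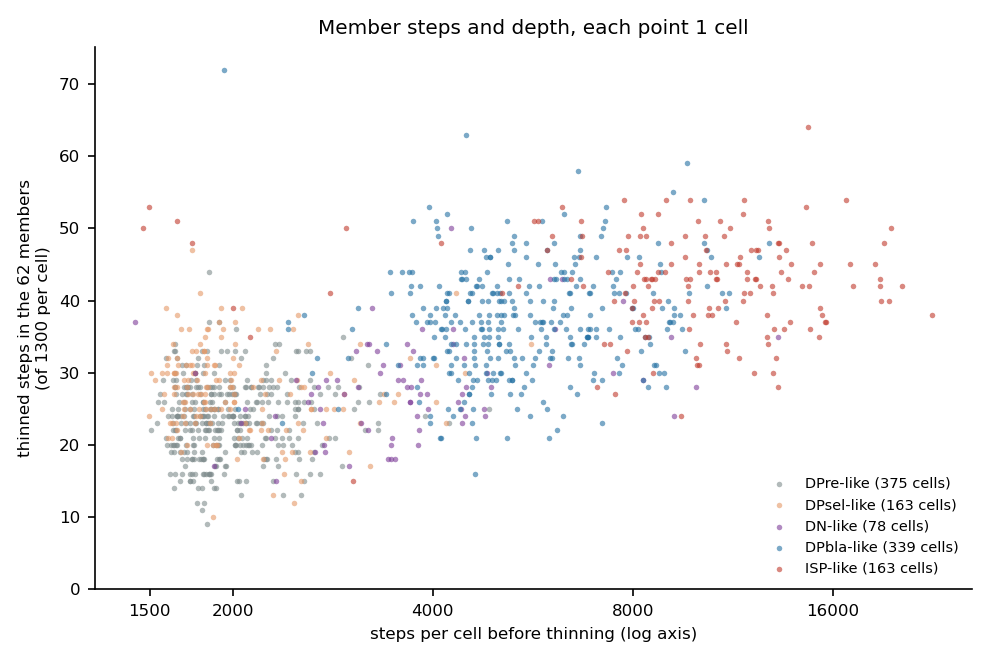
Thinned steps in the 62 members (vertical, of 1300 per cell) against steps per cell before thinning (horizontal, log axis), each point 1 cell of 5 classes. ISP-like and DPbla-like cells lie above DPre-like and DPsel-like cells, and within ISP-like cells the shallower and deeper cells have means of 42.4 and 42.5 steps.

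Some members have near-identical copies elsewhere in the genome, among them Hnrnpa1, Srsf3 and the small Sm genes. The authors removed pseudogenes from their reference, so reads from such copies may be counted in the parent gene, and the levels of these members are uncertain to that extent.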

How the data were processed

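Per the labels and the study's methods, the authors aligned the scRNA-seq reads with Cell Ranger 1.3.1 to GRCm38.p5 without ribosomal, mitochondrial and pseudogene sequences, quantile-normalized the values and deposited them on a log2 scale, with 79.7% of values at 0. The methods state filters on cells and genes. The deposited table holds 1993 cells, of which 7 exceed the stated limit of 4500 detected genes and 1986 do not, and all 1993 were used. Counts were not used here. Values were turned into steps, thinned to 1300 steps per cell without replacement and averaged per class. Cells were clustered with Seurat 5.3.0 (R 4.3.3) at 20 principal components, 30 neighbours and resolution 2. Each cluster was named for the class whose markers had the highest mean z score. It stayed unnamed under a score of 0.5 or where its 10 leading genes held more markers of another class. Where Mki67 was above 0 in 50% or more of its cells, a cluster could only be ISP-like or DPbla-like. These naming rules were set after the clusters were seen.

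Genes were compared where the mean of both class means was at least 0.05 steps, and called at a ratio of 1.5. The code was tested on simulated data. Python 3.11.15, numpy 2.4.6, pandas 2.3.3 and scipy 1.17.1 were used. The members, lists, tests and rules were chosen with earlier results of these data known. Per comparison, the named members are up to 8 per direction with the largest ratios, the highest and lowest of each family, and Hnrnpll, Srsf1, Srsf2, Srsf3, Hnrnpa1, Hnrnpa2b1, Hnrnpl and Hnrnpu. Srsf5, Sf3b1, Sf3b3, Snrpb, Snrpe and Prpf19 were named after their values were seen. The values of 1 member are not reported here, though it is counted in the totals. Promoter sequences are from RefSeq, GRCm38.p6.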

Additional observations from a re-analysis of the deposited data

How the results depend on the processing

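Of 82 repeats of the 6 counts of members past the fold, 57 stayed within 1.5 times the value given, and so did all of those under 20 neighbours, no filter, members kept among the clustering genes (the same clusters, since none was variable) and leaving out in each cluster the 5% of its cells with most genes detected. Without thinning, the members past the fold numbered 62 in ISP-like, 62 in DPbla-like, 54 in DN-like and 14 in DPsel-like against DPre-like cells, all higher, where 95.1%, 82.9%, 74.3% and 17.1% of all genes tested were higher past the fold. At 2-fold the counts in the order of the report were 17, 11, 5, 0, 1 and 3, beside 35.0%, 24.5%, 24.0%, 11.1%, 18.0% and 9.7% of all genes in either direction (27.9%, 18.6%, 8.2%, 0.0%, 1.69% and 5.0% of members). All 17 and 11 of the first comparisons were higher, beside 16.0% and 10.7% of genes higher, and at the smaller fold tried those from DPbla-like cells on were 40, 37, 27, 25 and 23 (67.8%, 60.7%, 45.8%, 42.4% and 38.3% of members, beside 68.1%, 67.1%, 56.2%, 61.1% and 52.4% of all genes). A filter of 0.2 steps gave 12 (DN), 4 (DPsel), 6 (CD4sp and CD8sp) and 3 (CD4sp against CD8sp), or 28.6%, 9.76%, 15.8% and 7.89% of members beside 36.3%, 23.9%, 33.2% and 11.9% of all genes. For DPsel-like cells the count was 14 at 2000 steps, 18 in cells with 2000 to 4000 steps, and 4 with unnamed clusters joined to their best class, an alternative chosen after seeing the data (38.3%, 42.6% and 28.9% of all genes). In cells with 2000 to 4000 steps it was 20 for mature cells (44.1% of genes). For CD4sp against CD8sp it was 4 with scaled steps and 6 with another random seed (18.9% and 28.3% of genes). In ISP-like against DPre-like cells, the alternatives at 1.5-fold on thinned or scaled steps in cells of all depths ran from 26 to 34, with 26 to 32 higher, where 21.4% to 31.4% of genes were higher.

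On the deposited scale the mean log2 value over the members was 0.688 (DN), 1.16 (ISP), 0.966 (DPbla), 0.498 (DPre), 0.59 (DPsel), 0.529 (CD4sp), 0.59 (CD8sp), 0.513 (NCL) and 0.496 (APC), which is another unit. Of 988 repeats of log2 ratios of named members past the fold, 809 stayed past it in the same direction, 150 fell within it and 29 changed sign. The 29 include Prpf18 in the 5 ISP-like cells with 2000 to 4000 steps, whose sign came only from the value set for a gene at 0. Without thinning Prpf18 was at 1.49 (ISP) and 0.68 (DN), and in DN-like cells Srsf9 was at 0.53, Prpf4b at 0.44, Hnrnpll at 0.37, Sf3b4 at 0.25 and Snrpb2 at 0.42. The median over all genes was then 2.22 (ISP) and 0.99 (DN). Srsf4 in mature cells was at 0.06 and Srsf10 between the lineages at -0.01. In cells with 2000 to 4000 steps, with 5 ISP-like cells, Prpf18 was at 2.37, which is the value set for a gene at 0 in 5 cells and no change of direction, and 1 to 4 steps put Hnrnpd at -0.13, Sf3b6 at -0.16, Hnrnpa1 at -0.43 and Hnrnpa2b1 at -0.56; Snrpd2 was at -0.11 in DPbla-like cells, Sf3a1 at -0.29 (DN) and -0.34 (DPsel), and Sf3a3 at -0.26 (DPsel). At 2000 steps Sf3a2 was at -0.11 (ISP), Sf3a1 at -0.01 (DPbla), -0.09 (DN) and -0.19 (DPsel), and Sf3a3 at -0.21 (DPsel) and -0.21 (mature cells). With another seed Sf3a2 was at -0.42 (ISP), Prpf18 at 0.17 and Sf3a1 at -0.32 (DN), and Prpf6 at -0.09 (DPsel); with scaled steps Sf3a1 was at -0.04 (DN). The cause of these changes was not tested. At resolution 1 the mature classes gave no value. No paired analysis was possible because there is 1 library.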
